A study of Mus musculus with 24 samples.

Results

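Callosal and corticothalamic projection neurons of the embryonic mouse cortex were compared at E18.5, shortly before birth, by the RNA levels of single genes. A gene entered the comparison when it reached 10 FPKM in at least 1 of the E18.5 groups, and rows of microRNAs, small nucleolar RNAs, clone-named small RNAs and numbered Gm genes at 0 in every group of a class were removed. This left 7905 of the 9767 genes in the expression table. FPKM are fragment counts scaled by transcript length and by library size, so levels of different genes can be set side by side per length.

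Cux2 CPNs came from Cux2-CreERT2:Ai14 mice and Tle4 CThPNs from Tle4-2A-CreERT2:Ai14 mice, labelled C57BL/6, for which the study's methods give a mixed C57BL/6J background. Ai14 is a reporter allele that makes tdTomato once Cre has acted, and CreERT2 acts when 4-hydroxytamoxifen is present. Males homozygous for the driver and the reporter were mated with wild-type females, the pregnant dams received 1 mg of 4-hydroxytamoxifen per 10 g of body weight, and embryos were collected at E18.5. Somatosensory and motor cortex was digested with papain, and tdTomato-positive cells pooled from animals of both sexes were sorted by FACS and sequenced as 2 libraries per class. The expression table holds 1 value per gene for each class and age, which the authors' Cuffdiff run made from both libraries, so no value below has an error and no difference has a test or a replicate check. Because Cux2-CreERT2 is known to mark some cortical interneurons as well, their marker genes are given beside the callosal results. The study sequenced single cells of both labelled populations and, counting both together, found a small share with Gad1 or Gad2. Its authors concluded that interneurons affected their results minimally.

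CPNs of the upper layers send axons through the corpus callosum to the other hemisphere, whereas CThPNs of layer 6 send them to the thalamus. Layer 6 neurons are born before upper layer neurons, and at E18.5 many upper layer neurons are still migrating or have just arrived. Transcription factors such as Cux1 and Cux2 on the callosal side, and Fezf2, Tbr1 and Sox5 on the corticofugal side, are known for their part in keeping the identities apart.

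The class difference was taken as log2(FPKM + 1) in Cux2 CPNs minus that in Tle4 CThPNs, and a gene was counted as higher in a class when the size of this difference was at least 1.5. Most genes differed little. The difference lay within 0.5 of 0 for 5641 genes (71.4%), with quartiles of -0.15 and 0.39 and a median of 0.13, against which the list medians below are to be read. At the limit of 1.5, 180 genes (2.28% of those compared) were higher in Cux2 CPNs, 228 (2.88%) were higher in Tle4 CThPNs, and 408 (5.16%) were higher in either class. Differences of at least 3 were found for 40 genes in favour of Cux2 CPNs and 62 in favour of Tle4 CThPNs.

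**Figure D1:**
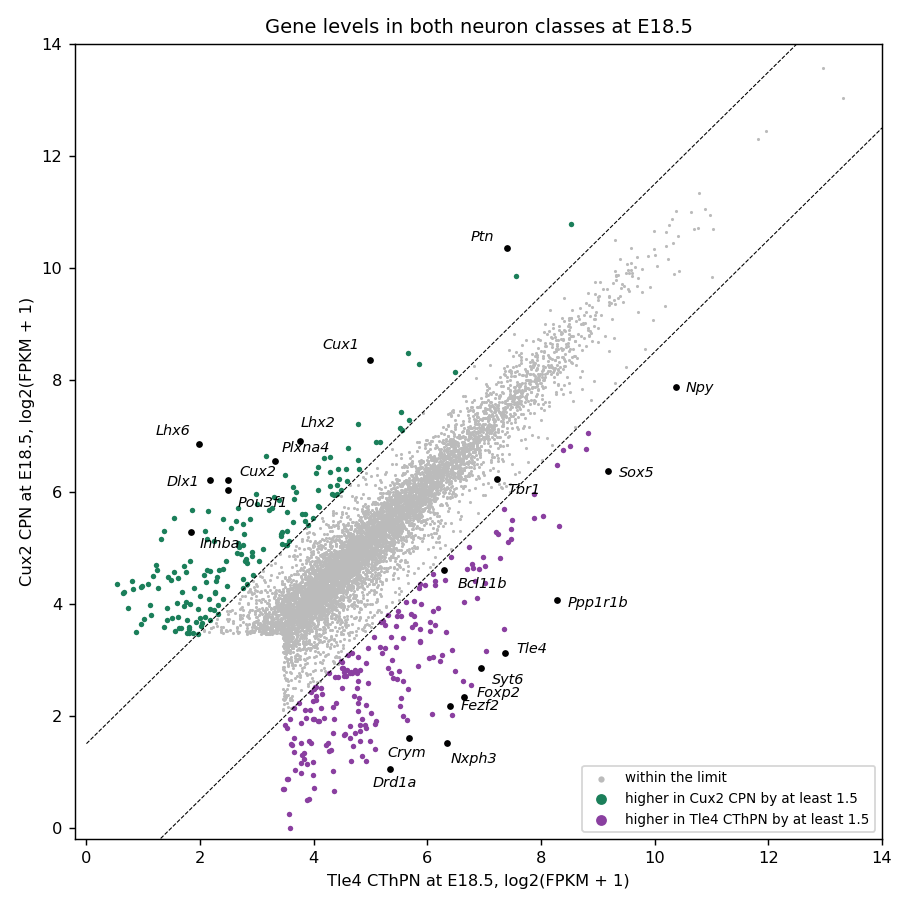
Level of 7870 genes at E18.5 in Tle4 CThPNs (horizontal) and Cux2 CPNs (vertical), as log2(FPKM + 1), without 35 short genes; each point is 1 gene, dashed lines mark a difference of 1.5, and selected genes are drawn in black with their names. Lhx6, Cux2, Cux1 and Ptn lie far above the upper line, Nxph3, Tle4, Foxp2 and Npy far below the lower line, and Tbr1 lies between the lines.

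Small RNAs made up a large part of the extreme values. Among the 20 largest differences in each direction, 7 in favour of Cux2 CPNs and 11 in favour of Tle4 CThPNs belonged to genes whose annotated exons span up to 300 nt, such as mt-Ts1, Gm12563 and copies of U6, for many of which 1 class was listed at 0. In all, 35 of the compared genes were this short, and 9 of them were higher in Cux2 CPNs and 15 in Tle4 CThPNs. Short genes and the removed rows held 80.2% of all FPKM in Cux2 CPNs and 1.37% in Tle4 CThPNs, while the compared genes that are not short summed to 544296 FPKM and 492384 FPKM. Short genes are not described further.

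The genes behind the Cre lines followed the labels. Cells were sorted through Cre expressed from these genes, which favours this result, so it is no separate check. Cux2, a homeobox factor of upper layer neurons at chr5:122308396-122500111 on the minus strand of NCBIM37, had 73.0 FPKM in Cux2 CPNs and 4.65 FPKM in Tle4 CThPNs, a difference of 3.71. Tle4, a Groucho-type corepressor at chr19:14522562-14672473 on the minus strand, had 7.74 FPKM in Cux2 CPNs and 165 FPKM in Tle4 CThPNs, a difference of -4.24.

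For 4 leading class genes, the 250 bases before 1 transcription start each are shown to give the regulatory context of genes of each side. The bases come from RefSeq (GRCm38.p6), and each run was placed on NCBIM37 by an exact match in which it overlaps no annotated exon. The starts are those of RefSeq, of which Lhx2 and Tle4 have a further one that is not shown, and that of Tle4 lies upstream of the annotated gene whose position is given above. Lhx2 (chr2:38194551-38194800, plus strand) and Inhba (chr13:16103434-16103683, plus strand) were higher in Cux2 CPNs, and Fezf2 (chr14:13178380-13178629, minus strand) and Tle4 (chr19:14672674-14672923, minus strand) were higher in Tle4 CThPNs. Capitals mark the letters CTTTGT, the reverse complement of the SOX motif ACAAAG, which begin 228 bases before the start of Inhba.
Lhx2: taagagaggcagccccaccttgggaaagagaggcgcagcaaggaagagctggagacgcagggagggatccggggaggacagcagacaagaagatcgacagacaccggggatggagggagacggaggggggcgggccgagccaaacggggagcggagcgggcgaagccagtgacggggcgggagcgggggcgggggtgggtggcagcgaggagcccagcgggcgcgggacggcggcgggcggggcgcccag
Inhba: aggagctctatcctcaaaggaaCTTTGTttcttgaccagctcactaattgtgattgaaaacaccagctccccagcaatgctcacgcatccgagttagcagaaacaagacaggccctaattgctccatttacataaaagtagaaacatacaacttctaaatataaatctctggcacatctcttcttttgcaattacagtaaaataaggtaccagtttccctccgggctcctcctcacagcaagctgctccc
Fezf2: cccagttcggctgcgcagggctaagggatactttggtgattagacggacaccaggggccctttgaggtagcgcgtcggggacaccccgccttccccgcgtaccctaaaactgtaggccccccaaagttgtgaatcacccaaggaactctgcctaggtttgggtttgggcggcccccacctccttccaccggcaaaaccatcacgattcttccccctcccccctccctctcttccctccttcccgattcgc
Tle4: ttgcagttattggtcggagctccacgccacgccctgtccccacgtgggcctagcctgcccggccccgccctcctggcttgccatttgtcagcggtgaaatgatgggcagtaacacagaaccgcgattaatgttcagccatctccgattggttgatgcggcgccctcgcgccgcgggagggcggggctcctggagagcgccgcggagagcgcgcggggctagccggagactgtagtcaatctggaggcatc

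Short motifs were also counted over the class genes. A promoter window was given for 257 of the 408 class genes, as 160 windows of genes higher in Cux2 CPNs and 200 of genes higher in Tle4 CThPNs. Letters were searched on both strands and set against the 7513 windows of all compared genes and the 32851 windows of all genes. The SOX letters ACAAAG were present in 18.1% of the windows on the Cux2 side and 11.0% on the Tle4 side, against 12.0% over the compared genes and 16.5% over all genes. The E-box letters CAGATG were present in 8.75% and 12.5%, against 9.48% and 14.4%. The homeodomain letters TAATTA were present in 3.12% and 3.00%, against 2.30% and 4.84%, and the T-box letters GGTGTGA in 1.88% and 3.50%, against 2.57% and 3.33%. The octamer ATGCAAAT was present in 1.88% and 1.5%, against 1.04% and 1.60%, and the nuclear factor I half-site TTGGCA in 11.9% and 8.0%, against 8.68% and 12.3%. These are matches of letters in a short window and no evidence of binding.

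Known callosal genes lay mostly on the side of Cux2 CPNs. Of 31 compared genes on a list of callosal and upper layer genes, 26 had a difference above 0. At the limit, 17 were higher in Cux2 CPNs and 2 in Tle4 CThPNs, with a median difference of 1.58. After scaling both groups by median ratios, these counts were 15 and 2. The homeobox factor Cux1 had 326 FPKM in Cux2 CPNs and 30.6 FPKM in Tle4 CThPNs, the highest level among the transcription factors named on the callosal side.

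The class III POU factors are known from upper layer neurons. Pou3f1 had 64.1 FPKM in Cux2 CPNs and 4.65 FPKM in Tle4 CThPNs, a difference of 3.53. Pou3f2 had 23.7 FPKM and 4.27 FPKM, and Pou3f3 64.2 FPKM and 21.3 FPKM. The differences of Pou3f2 and Pou3f3 were 2.23 and 1.55, and Pou3f3 was one of 7 named genes that no longer reached 1.5 after scaling both groups by median ratios. The LIM homeobox factor Lhx2 had 119 FPKM against 12.6 FPKM. Among secreted proteins, the activin subunit Inhba had 37.9 FPKM in Cux2 CPNs and 2.56 FPKM in Tle4 CThPNs. Ptn (pleiotrophin, a heparin-binding growth factor) had 1303 FPKM and 168 FPKM, the highest level among these genes.

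Kitl and Dkk3 went the other way. Kitl, the ligand of the Kit receptor, had 7.32 FPKM in Cux2 CPNs and 67.1 FPKM in Tle4 CThPNs, and its receptor gene Kit had 7.27 FPKM and 26.4 FPKM. Dkk3, a secreted protein of the Dickkopf family, had 15.6 FPKM and 53.0 FPKM. The difference of Kitl was -3.03 at E18.5, -0.92 at P3 and 1.03 at P48, whereas that of Dkk3 was -1.70, -2.19 and -0.95.

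Corticothalamic genes were higher in Tle4 CThPNs or lay within the limit. Of 24 compared genes on a list of corticothalamic and layer 6 genes, 15 were higher in Tle4 CThPNs and 0 in Cux2 CPNs, with a median difference of -2.81. The largest difference was that of Nxph3, a secreted ligand of alpha-neurexins, with 1.85 FPKM in Cux2 CPNs and 80.5 FPKM in Tle4 CThPNs. Hs3st4, a heparan sulfate sulfotransferase, had 3.03 FPKM and 85.3 FPKM, and the forkhead factor Foxp2 4.03 FPKM and 99.5 FPKM. Fezf2, a zinc finger factor of corticofugal neurons, had 3.51 FPKM and 82.9 FPKM. Ppp1r1b (DARPP-32, a phosphatase regulator under dopamine signalling) reached 309 FPKM in Tle4 CThPNs, with 15.8 FPKM in Cux2 CPNs, and Drd1a, a dopamine receptor gene, had 1.06 FPKM in Cux2 CPNs and 39.6 FPKM in Tle4 CThPNs.

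Not every corticothalamic regulator was a class gene at E18.5. Tbr1, a T-box factor needed for layer 6 identity, had 73.7 FPKM in Cux2 CPNs and 148 FPKM in Tle4 CThPNs, a difference of -0.99 that did not reach the limit. It did so at P1, P3 and P7, with differences of -1.78, -2.52 and -2.58. Sox5 was the opposite case of a high level in both classes with a large difference, at 81.7 FPKM and 580 FPKM. Ntsr1, whose promoter is widely used to mark layer 6 corticothalamic neurons, had 19.8 FPKM and 49.2 FPKM, a difference of -1.27. Foxp1 and Bcl11a, which were on the same list, were slightly higher in Cux2 CPNs, with differences of 0.95 and 0.93.

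Genes of other deep layer neurons also lay on the Tle4 side. Of 11 compared layer 5 genes, 5 were higher in Tle4 CThPNs and 1, Igfbp4, was higher in Cux2 CPNs, with a median difference of -1.48. Bcl11b (Ctip2), a factor of subcerebral neurons that layer 6 neurons also express, had 23.3 FPKM in Cux2 CPNs and 76.9 FPKM in Tle4 CThPNs. The ETS factor Etv1 had 3.52 FPKM and 44.7 FPKM. On the subplate and layer 6b list, 7 of 9 compared genes were higher in Tle4 CThPNs and 0 in Cux2 CPNs, with a median difference of -3.23. They included Ctgf, a matricellular growth factor with 17.5 FPKM in Tle4 CThPNs and 1.77 FPKM in Cux2 CPNs, and Nxph4 with 30.8 FPKM and 1.92 FPKM. In bulk samples, a larger share of cells of a type and more RNA per cell cannot be told apart.

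**Figure D2:**
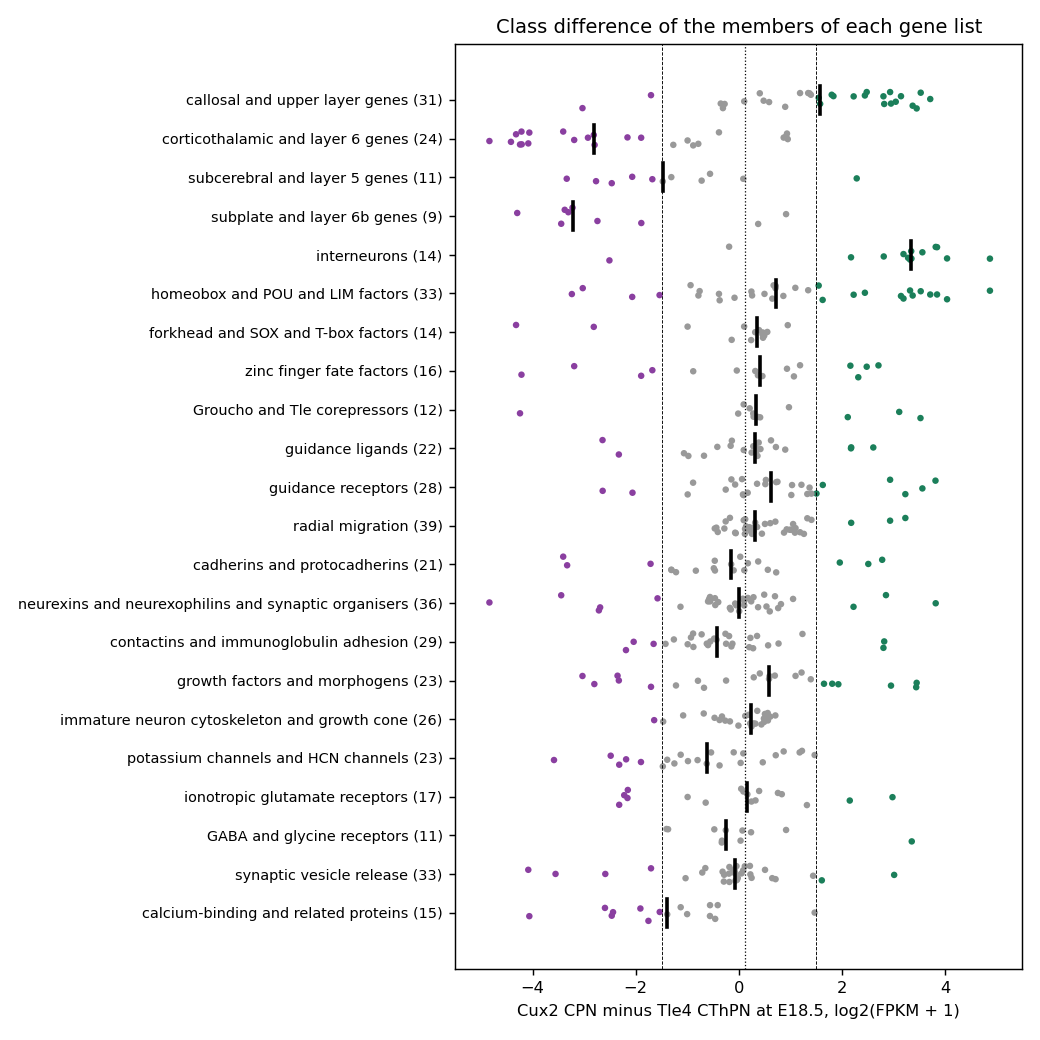
Class difference at E18.5 (horizontal, log2(FPKM + 1), positive when higher in Cux2 CPNs) of the genes on 22 lists, with the number of compared genes in brackets; each point is 1 gene, green at 1.5 or more and purple at -1.5 or less, short bars are list medians, the dotted line is the median of 0.13 over all genes and dashed lines are the limits. Callosal genes and interneuron markers lie mostly to the right, with medians of 1.58 and 3.33, and corticothalamic and subplate genes mostly to the left, with medians of -2.81 and -3.23.

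Interneuron markers were among the largest differences in favour of Cux2 CPNs. Of 14 compared markers, 12 were higher in Cux2 CPNs and 1, Npy, was higher in Tle4 CThPNs, with a median of 3.33. Lhx6, a LIM homeobox factor of interneurons from the medial ganglionic eminence, had 114 FPKM in Cux2 CPNs and 2.95 FPKM in Tle4 CThPNs, the largest difference (4.87) of any gene that is not short. The homeobox gene Dlx1 had 72.8 FPKM and 3.50 FPKM, and Gad1 and Gad2, which encode the enzymes of GABA synthesis, had 19.0 FPKM and 19.5 FPKM in Cux2 CPNs against 0.971 FPKM and 1.11 FPKM. The list holds 25 markers, of which 15 have a row in the table and the others were not analysed here. All 15 markers in the table had values above 0 in both classes, and 14 of them in Cux2 CPNs and 2 in Tle4 CThPNs reached 10 FPKM. Without Npy, the markers summed to 461 FPKM in Cux2 CPNs and 53.5 FPKM in Tle4 CThPNs. The glutamatergic markers summed to 1762 FPKM and 1702 FPKM, with 2 of 14 compared genes higher in Cux2 CPNs and 3 in Tle4 CThPNs.

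Npy, which encodes neuropeptide Y, had 233 FPKM in Cux2 CPNs and 1334 FPKM in Tle4 CThPNs at E18.5. Its difference of -2.51 lay opposite to those of Sst, which encodes the interneuron peptide somatostatin, at 2.18, and of the other class genes on the list. At P48 it was 5.49 in favour of Cux2 CPNs.

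Markers of other cell types were read in the same way. The 9 astrocyte markers summed to 39.4 FPKM in Cux2 CPNs and 123 FPKM in Tle4 CThPNs, of which Clu held 8.95 FPKM and 57.3 FPKM, while Slc1a2 and Aldh1l1 were at 1.42 FPKM and 0.962 FPKM in Cux2 CPNs and 2.81 FPKM and 2.38 FPKM in Tle4 CThPNs. Of the 3 astrocyte markers compared, 1, Clu, was higher in Tle4 CThPNs, as was Olig1, the 1 oligodendrocyte lineage marker compared, with 3.68 FPKM in Cux2 CPNs and 19.9 FPKM in Tle4 CThPNs. The 7 microglia markers summed to 8.62 FPKM and 27.4 FPKM, the 7 oligodendrocyte markers to 16.3 FPKM and 31.6 FPKM, the 4 endothelial and mural markers to 11.8 FPKM and 7.94 FPKM, and the 4 blood markers to 26.2 FPKM and 6.32 FPKM. C1qa was the one marker listed at 0, in Cux2 CPNs. The 12 radial glia markers in the table summed to 289 FPKM and 433 FPKM, with 2 of 8 compared genes, Ddah1 and Mfge8, higher in Tle4 CThPNs. The 12 intermediate progenitor markers in the table summed to 948 FPKM and 761 FPKM, and 1 of 10, the zinc finger factor Insm1, was higher in Cux2 CPNs with 26.3 FPKM against 4.48 FPKM. Of 31 listed markers of cycling cells, 8 have a row in the table, and these summed to 222 FPKM and 250 FPKM, and 1 of 6, the ribonucleotide reductase subunit Rrm2, was higher in Tle4 CThPNs. The lists of radial glia and intermediate progenitor markers hold 22 and 18 genes, and the remaining ones, like the cycling markers Mki67 and Top2a, were not analysed here. Of 8 genes that respond to dissociating cells, 1, the phosphatase gene Dusp6, was higher in Tle4 CThPNs. The part that any of these cells had in the class differences was not tested.

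Transcription factors were grouped by family. Of 33 compared homeobox, POU and LIM factor genes, 13 were higher in Cux2 CPNs and 4 in Tle4 CThPNs, and 5 of the 13, among them Lhx6, Dlx1, Dlx2 and Dlx5, were also interneuron markers, without which 8 were higher in Cux2 CPNs. Otx1, a factor of deep layer neurons, had 2.22 FPKM in Cux2 CPNs and 25.3 FPKM in Tle4 CThPNs. The LIM-domain protein gene Lmo7 had 6.87 FPKM and 73.4 FPKM, and Ldb2, a LIM-domain binding cofactor, 25.2 FPKM and 109 FPKM. Of 16 zinc finger fate factors, 4 were higher in each class. Zfpm2 (Fog2), a cofactor of GATA proteins found in corticothalamic neurons, had 2.73 FPKM in Cux2 CPNs and 33.2 FPKM in Tle4 CThPNs, and nuclear factor Nfia had 20.4 FPKM and 78.5 FPKM. Zbtb20, a zinc finger repressor, had 23.2 FPKM and 3.34 FPKM.

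Forkhead, SOX and T-box genes held 2 class genes of 14, Foxp2 and Sox5, both higher in Tle4 CThPNs. Among 16 basic helix-loop-helix and Notch output genes, 3 were higher in Cux2 CPNs (Npas1, also an interneuron marker, Npas3 and the E protein gene Tcf12) and 2 in Tle4 CThPNs (the Notch target Hey1 and Olig1, also an oligodendrocyte lineage marker). Of 9 nuclear receptor genes, 1, the clock repressor Nr1d2, was higher in Tle4 CThPNs, with 15.3 FPKM against 4.70 FPKM in Cux2 CPNs.

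Groucho corepressors were divided between the classes by member. These proteins bind transcription factors and silence their targets. Tle1 had 44.7 FPKM in Cux2 CPNs and 4.29 FPKM in Tle4 CThPNs, Tle3 had 49.7 FPKM and 3.41 FPKM, and Tle4 had 7.74 FPKM and 165 FPKM. The differences of Tle1 and Tle3 were 3.11 and 3.52, against -4.24 for Tle4, the driver gene by which its class was sorted. Tle2 lay within the limit at 10.7 FPKM and 8.09 FPKM. Of the 12 corepressor genes compared, Cbfa2t3, with 20.1 FPKM and 3.88 FPKM, was the third that was higher in Cux2 CPNs.

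Such splits were found for 18 of 1116 symbol stems with at least 2 compared members. Stems are shared beginnings of symbols and not always families, as for Bcl and Lrrc. Symbols starting with Slc, Zfp, Fam, Tmem or Ccdc were left out. The families described here were picked after their values were seen. Neurexophilins, secreted ligands of neurexins, were split evenly. Nxph1 had 50.1 FPKM in Cux2 CPNs and 2.62 FPKM in Tle4 CThPNs and Nxph2 had 11.0 FPKM and 1.58 FPKM, whereas Nxph3 and Nxph4 were higher in Tle4 CThPNs. Nxph1 is also on the interneuron list. The kinesin genes Kif26a and Kif26b had differences of -3.73 and 2.85, with 1.29 FPKM and 20.9 FPKM in Cux2 CPNs and 29.3 FPKM and 2.04 FPKM in Tle4 CThPNs. The group II metabotropic glutamate receptor genes Grm2 and Grm3 had differences of 2.46 and -2.38. Among regulators of G protein signalling, Rgs3 was higher in Cux2 CPNs at 1.75, while Rgs4, Rgs8, Rgs9, Rgs10 and Rgs16 were higher in Tle4 CThPNs, with differences of -3.03, -2.74, -1.99, -2.16 and -3.23.

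**Figure D3:**
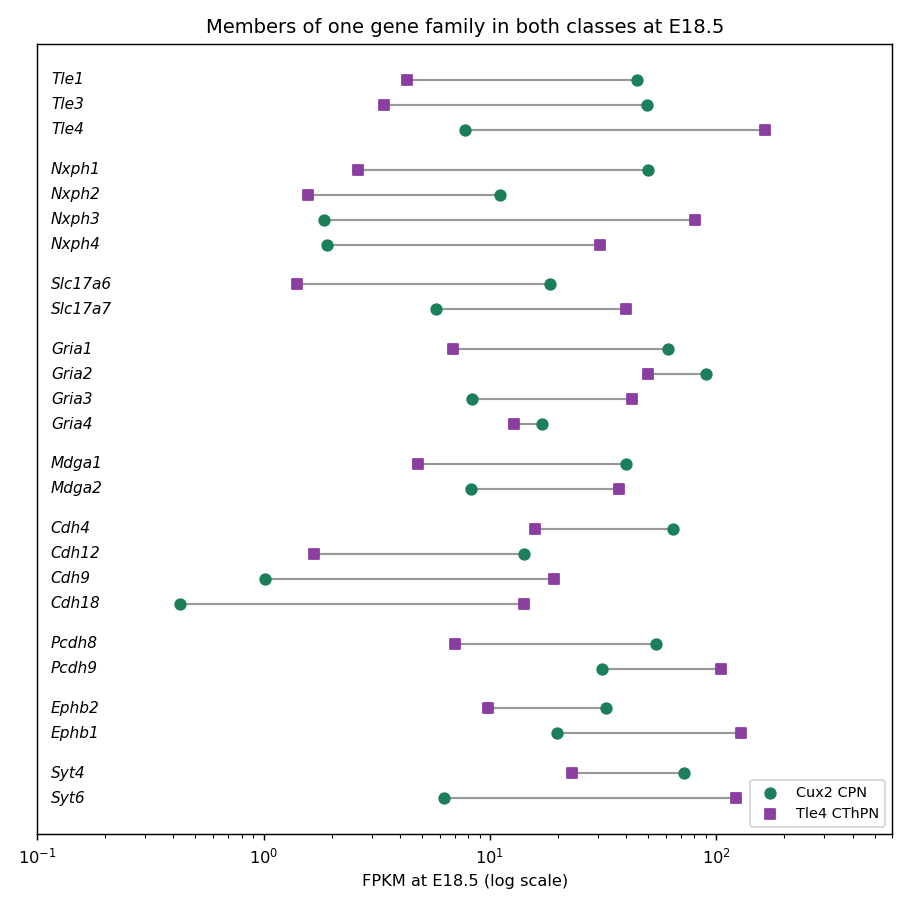
FPKM at E18.5 on a log axis of selected family members in Cux2 CPNs (green circles) and Tle4 CThPNs (purple squares), 1 row per gene with a line joining both values. Other members, such as Tle2, are not drawn, and Slc17a was not among the stems counted. Within each of the 9 groups shown, some members are higher in Cux2 CPNs and others in Tle4 CThPNs, as for Tle1 and Tle3 against Tle4, and Gria2 and Gria4 lie closer together than Gria1 and Gria3.

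Guidance receptors let axons and migrating cells read their surroundings. Of 28 compared receptors, 6 were higher in Cux2 CPNs and 2 in Tle4 CThPNs, with a median difference of 0.62. Plxna4, a semaphorin coreceptor, had 92.1 FPKM in Cux2 CPNs and 8.93 FPKM in Tle4 CThPNs. Unc5d, a netrin and FLRT receptor of migrating upper layer neurons, had 20.4 FPKM and 1.81 FPKM. The chemokine receptor genes Cxcr4, which is also an interneuron marker, and Cxcr7 had 17.3 FPKM and 19.4 FPKM in Cux2 CPNs and 0.555 FPKM and 0.448 FPKM in Tle4 CThPNs. Ephrin receptors were again split, with Ephb2 at 32.5 FPKM and 9.85 FPKM, and Ephb1 at 19.8 FPKM and 129 FPKM. Epha7 had 23.7 FPKM in Cux2 CPNs and 102 FPKM in Tle4 CThPNs. Neo1, the neogenin receptor, lay just inside the limit at 1.51 and no longer reached it after scaling.

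The cues themselves were expressed on both sides. Of 22 compared ligands, 3 were higher in Cux2 CPNs and 2 in Tle4 CThPNs, with a median difference of 0.30. Sema3c and Sema3a, secreted semaphorins, had 58.8 FPKM and 21.2 FPKM in Cux2 CPNs against 8.82 FPKM and 3.91 FPKM in Tle4 CThPNs. Efnb2, a ligand of EphB receptors, had 109 FPKM and 23.4 FPKM. Slit1, a ligand of Robo receptors, had 2.22 FPKM in Cux2 CPNs and 19.1 FPKM in Tle4 CThPNs, and Wnt7b had 45.5 FPKM and 232 FPKM. Of 39 genes of radial migration, 3 were higher in Cux2 CPNs (Plxna4, Unc5d and Sema3a) and 0 in Tle4 CThPNs. The difference was above 0 for 31 of the 39, as it was for 4983 of all 7905 compared genes, and its median of 0.32 was 0.21 after scaling by median ratios. Doublecortin (Dcx), which stabilises microtubules in migrating neurons, had 287 FPKM and 175 FPKM, a difference of 0.71 within the limit.

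Adhesion genes lay on both sides. Of 21 cadherins and protocadherins, 3 were higher in each class. Cdh12 at chr15:21041207-21519288 had 14.2 FPKM in Cux2 CPNs and 1.66 FPKM in Tle4 CThPNs. On the same chromosome and strand, Cdh9 at chr15:16707856-16786522 had 1.02 FPKM and 19.3 FPKM, and Cdh18 at chr15:22478777-23404173 had 0.428 FPKM and 14.1 FPKM. Among 29 immunoglobulin superfamily genes, 2 were higher in Cux2 CPNs and 3 in Tle4 CThPNs. Mdga1 and Mdga2, which bind neuroligins, had 40.1 FPKM and 8.26 FPKM in Cux2 CPNs against 4.82 FPKM and 37.1 FPKM in Tle4 CThPNs. Pvrl3 (nectin-3) had 77.8 FPKM and 10.3 FPKM, and Cadm1 50.5 FPKM and 161 FPKM.

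Of 36 genes for neurexins and other synaptic organisers, 3 were higher in Cux2 CPNs and 5 in Tle4 CThPNs, with 18 differences on each side of 0. Nrxn3, a presynaptic neurexin, had 43.7 FPKM in Cux2 CPNs and 5.19 FPKM in Tle4 CThPNs. Lrrtm4 and Lrrtm3, which encode leucine-rich repeat proteins of the postsynaptic membrane, were higher in Tle4 CThPNs, with Lrrtm4 at 5.40 FPKM and 41.0 FPKM and Lrrtm3 at 3.26 FPKM and 26.5 FPKM. The difference of Lrrtm4 was -2.71 at E18.5, -0.36 at P3 and 1.95 at P7.

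Growth factor genes were divided too. Of 23 compared genes, 6 were higher in Cux2 CPNs and 5 in Tle4 CThPNs. Neurotrophin-3 (Ntf3) had 18.2 FPKM in Cux2 CPNs and 0.772 FPKM in Tle4 CThPNs, and Pdgfa, a platelet-derived growth factor, 27.7 FPKM and 6.55 FPKM. Gdf10, of the transforming growth factor beta family, had 1.26 FPKM and 14.8 FPKM, and the Wnt antagonist Sfrp2 4.10 FPKM and 25 FPKM. Among 21 growth factor receptors, 2 were higher in each class, namely Erbb4 (also an interneuron marker) and Bmpr1b in Cux2 CPNs and Kit and Met in Tle4 CThPNs. Of 11 genes for neuropeptides and hormone signals, 3 were higher in Cux2 CPNs and 5 in Tle4 CThPNs, and without interneuron markers these were 1 and 4. Igfbp3, a binding protein of insulin-like growth factors, had 5.11 FPKM and 97.3 FPKM, while its relative Igfbp5 had 10.4 FPKM and 1.94 FPKM.

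Ion channels and calcium sensors shape how neurons fire. Of 23 potassium and HCN channel genes, 5 were higher in Tle4 CThPNs and 0 in Cux2 CPNs, with a median difference of -0.62. Kcnab1, an auxiliary subunit of Kv1 channels, had 2.97 FPKM in Cux2 CPNs and 46.7 FPKM in Tle4 CThPNs, and the Kv1 subunit gene Kcna6 had 10.8 FPKM and 57.7 FPKM. Kcnk1, a leak channel, had 3.99 FPKM and 26.9 FPKM. Of 11 genes listed by symbol as sodium and calcium channels, 2 (Cacng3 and Cacna2d1) were higher in Cux2 CPNs and 0 in Tle4 CThPNs. Cacng3 encodes an AMPA receptor auxiliary subunit in spite of its symbol. After scaling by median ratios, Cacna2d1 no longer reached the limit, and the counts were 1 and 1. Of 15 genes in a list of calcium-binding and related proteins, 7 were higher in Tle4 CThPNs and 0 in Cux2 CPNs, with a median of -1.39. Crym, whose protein binds thyroid hormone and is no calcium sensor, is among the 7 and had 2.05 FPKM and 50.0 FPKM. Vsnl1, a neuronal calcium sensor, had 6.25 FPKM and 38.4 FPKM, and Pcp4, a calmodulin regulator, had 27.1 FPKM and 154 FPKM.

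The vesicular glutamate transporters and AMPA receptor subunits differed by member. Slc17a6 (VGLUT2) had 18.4 FPKM in Cux2 CPNs and 1.41 FPKM in Tle4 CThPNs, and Slc17a7 (VGLUT1) 5.79 FPKM and 39.9 FPKM. At P48 these differences were 1.41 and -0.49, both within the limit. Gria1, which encodes the AMPA receptor subunit GluA1, had 61.1 FPKM and 6.87 FPKM, whereas Gria3 had 8.31 FPKM and 42.5 FPKM. Of 17 compared glutamate receptor genes with their auxiliary subunits, 2 were higher in Cux2 CPNs and 4 in Tle4 CThPNs, the latter including the AMPA receptor auxiliary subunit Cnih3 with 33.3 FPKM and 170 FPKM. Among 11 GABA and glycine receptor genes, Gabra2 alone was past the limit, at 23.2 FPKM in Cux2 CPNs and 1.37 FPKM in Tle4 CThPNs. Of 33 vesicle release genes, 2 were higher in Cux2 CPNs and 4 in Tle4 CThPNs. The SNARE protein gene Snap25 had 111 FPKM and 364 FPKM, Syt6 6.25 FPKM and 122 FPKM, and the vesicle glycoprotein gene Sv2b 1.44 FPKM and 27.7 FPKM.

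Young neurite proteins and basic cell machinery held 1 class gene. Of 26 genes of the immature cytoskeleton and growth cone, 1, the intermediate filament gene Ina, was higher in Tle4 CThPNs, with 106 FPKM in Cux2 CPNs and 332 FPKM in Tle4 CThPNs. None of 78 ribosomal protein genes and none of 77 respiratory chain genes was past the limit. All 78 ribosomal protein genes had a difference above 0, with a median of 0.53, or 0.42 after scaling by median ratios, against 0.11 for the respiratory chain and 0.13 for all genes.

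The class difference was also read by how genes develop. A rising and a falling set were drawn, after the data had been seen, from the change between P3 and P48. The change uses no E18.5 value, but the sets hold only compared genes, which reached 10 FPKM in at least 1 E18.5 group. A gene low at E18.5 could enter only through the class where it was higher, which can raise the shares below. Of 162 genes that were higher at P48 by at least 1.5 in both classes, 23 (14.2%) were higher in Tle4 CThPNs at E18.5 and 2 (1.23%) in Cux2 CPNs, with a median difference of -0.35. Of 371 genes that were lower at P48 by as much in both classes, 23 (6.20%) were higher in Tle4 CThPNs and 10 (2.70%) in Cux2 CPNs, with a median of 0.26. The 7372 genes of neither set held 182 (2.47%) and 168 (2.28%), with a median of 0.13.

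The highest levels among class genes belonged to a mixed group. In favour of Cux2 CPNs, Eif1b, a translation initiation factor gene, had 922 FPKM in Cux2 CPNs and 188 FPKM in Tle4 CThPNs, and Dok5, an adaptor of receptor tyrosine kinases, had 283 FPKM and 89.0 FPKM. In favour of Tle4 CThPNs, Rprm (reprimo, a cell cycle regulator found in layer 6) had 41.1 FPKM and 319 FPKM, and Sez6, a membrane protein of dendrites and synapses, had 108 FPKM and 440 FPKM. Endophilin A1 (Sh3gl2), of vesicle endocytosis, had 46.2 FPKM and 263 FPKM. Just inside the limit in favour of Cux2 CPNs lay Gm10119, Neo1 and Lrrc16b, at 1.51, 1.51 and 1.5, and just outside lay D4Ertd22e, Hivep3 and Masp1, at 1.5, 1.49 and 1.49. On the other side Arhgap20, Tank and Gm6180 lay just inside, each at -1.51, and Grp, Sh3bp4 and Itm2a just outside, at -1.5, -1.5 and -1.49.

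Later ages gave separate libraries in which the same genes could be followed. At P1, 178 of the 7905 genes (2.25%) were higher in Cux2 CPNs and 176 (2.23%) in Tle4 CThPNs. The corresponding numbers were 187 (2.37%) and 161 (2.04%) for P3, and 163 (2.06%) and 142 (1.80%) for P7. In the adolescent and adult cortex they were 128 (1.62%) and 159 (2.01%) for P21, and 117 (1.48%) and 159 (2.01%) for P48. Of the 180 genes higher in Cux2 CPNs at E18.5, 133 (73.9%) were also so at P1, 86 (47.8%) at P7 and 38 (21.1%) at P48. They made up 74.7%, 52.8% and 32.5% of the compared genes higher in Cux2 CPNs at those ages. Genes that did not reach 10 FPKM at E18.5 are left out of these shares, also where they differed later. Without the listed interneuron markers, which summed to 2822 FPKM in Cux2 CPNs and 417 FPKM in Tle4 CThPNs at P48 with Npy left out, the 38 genes were 32. Of the 228 genes higher in Tle4 CThPNs, 144 (63.2%), 81 (35.5%) and 69 (30.3%) were also so. These were 81.8%, 57.0% and 43.4% of the compared genes higher in Tle4 CThPNs at those ages. At P48, 5 genes of the first set and 7 of the second were past the limit in the opposite direction. Genes were picked by their E18.5 values, a choice that favours large differences at that age over later ones, and the study's methods give a higher papain concentration at P21 and P48.

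**Figure D4:**
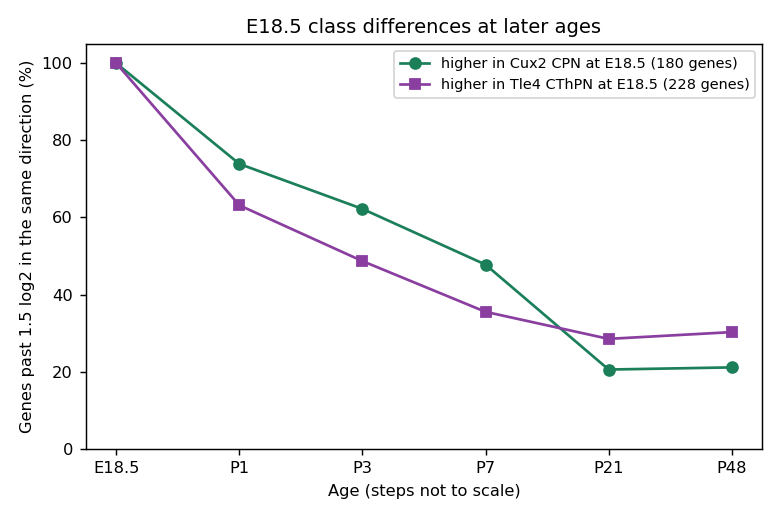
Share (vertical, %) of the 180 genes higher in Cux2 CPNs (green circles) and the 228 genes higher in Tle4 CThPNs (purple squares) at E18.5 that had a difference of at least 1.5 in the same direction at each age (horizontal, not to scale). The share is 100% at E18.5 by construction and ends at 21.1% and 30.3% at P48.

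At all 6 ages, 22 genes were past the limit on the Cux2 CPN side, among them the interneuron marker Sst, and 40 on the Tle4 CThPN side. Among the lasting genes of the Cux2 CPN side, Cux2, the driver gene of that line, had differences of 3.71 at E18.5, 4.20 at P7 and 4.32 at P48. Fam19a2, a secreted chemokine-like protein, had 98.6 FPKM and 7.90 FPKM at E18.5 and a difference of 4.13 at P48. The small heat shock protein gene Hspb3 was at 3.04 at E18.5 and 4.62 at P48, and Vstm2l at 2.29 and 3.86. Inhba was at 3.45 at E18.5, 5.10 at P3 and 2.53 at P48. On the Tle4 CThPN side, Nxph3 was at -4.84 at E18.5 and -6.13 at P48, Syt6 at -4.08 and -5.63, and Foxp2 at -4.32 and -4.80. Spsb1, a SOCS box protein gene, was at -2.91 and -4.38, and Sulf1, an extracellular heparan sulfatase, at -2.80 and -4.33.

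Other differences were past the limit at early ages and not at later ones. At E18.5 alone, 36 genes were higher in Cux2 CPNs and 64 in Tle4 CThPNs, and a further 44 and 23 were past the limit at every age from E18.5 to P7 and at neither later age. Cxcr4 was at 3.56 at E18.5, 2.14 at P3, 0.30 at P7 and 0.11 at P48. Thbs1, the matricellular protein thrombospondin-1, was at 3.61, 2.73, 1.69 and 0.17, and Pdzrn4 at 2.95, 1.03, 0.26 and -0.72. In favour of Tle4 CThPNs, Lgi1, a secreted synaptic protein, was at -3.47 at E18.5, -1.55 at P3, 0.15 at P7 and 0.37 at P48. Dbc1 (Brinp1, known from postmitotic neurons) had 7.17 FPKM in Cux2 CPNs and 64.5 FPKM in Tle4 CThPNs at E18.5, and its difference of -3.0 was -1.01 at P1 and -0.04 at P3. Interneuron markers without Npy summed to 461 FPKM, 606 FPKM and 2822 FPKM in Cux2 CPNs at E18.5, P7 and P48, and to 53.5 FPKM, 322 FPKM and 417 FPKM in Tle4 CThPNs, and their part in these changes was not tested.

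**Figure D5:**
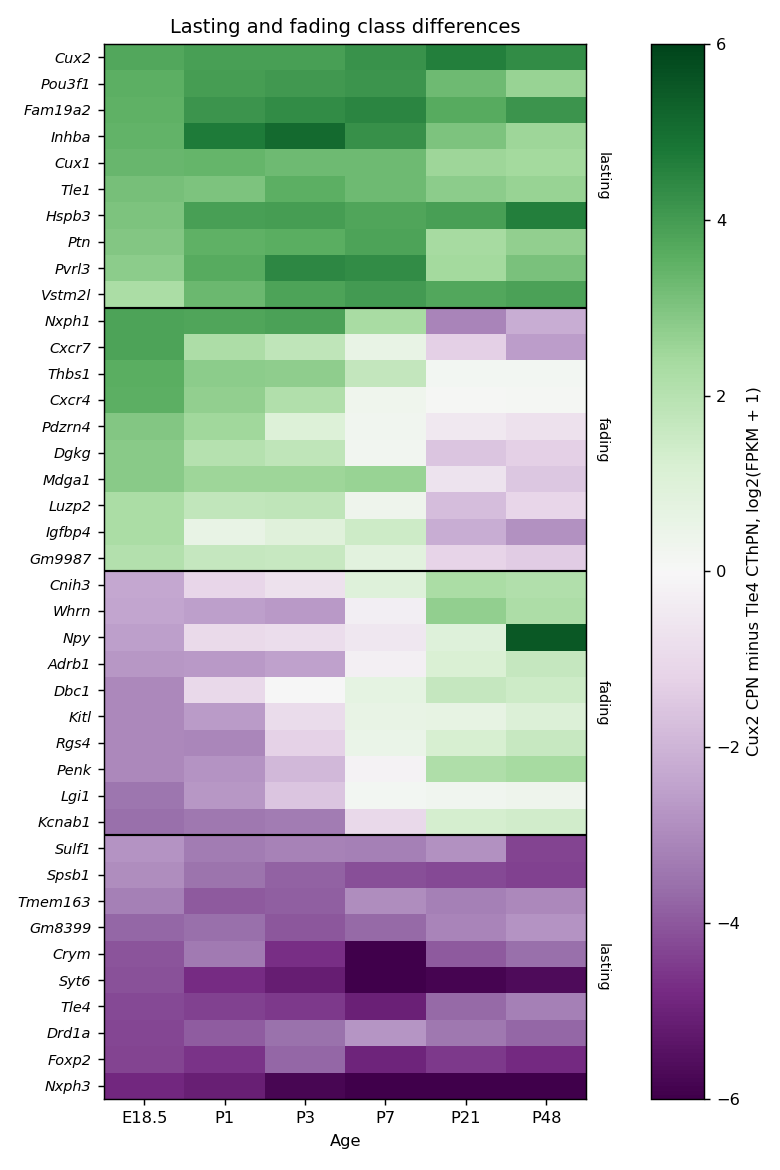
Class difference (colour, log2(FPKM + 1), green when higher in Cux2 CPNs and purple when higher in Tle4 CThPNs, saturated at 6) of 40 genes (rows) at 6 ages (columns), in 4 blocks of 10. The outer blocks keep their colour up to P48, as Cux2 at 4.32 and Nxph3 at -6.13 do, while the inner blocks fade or turn, as Cxcr4 at 0.11 and Penk at 2.36 do.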

How the data were processed

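RNA-seq was analysed for Cux2 CPNs and Tle4 CThPNs at 6 ages from E18.5 to P48, with 24 libraries in 12 groups. The authors trimmed the reads, aligned them to NCBIM37 with TopHat2 and deposited FPKM from Cuffdiff, 1 value per gene and group over 2 libraries. How Cuffdiff normalised between libraries is not given in the sources used here. The study's methods state a minimum number of reads per library, but the FPKM table carries no read numbers, and the counting error of a value is not known. The labels give 12 U/ml of papain.

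Differences of log2(FPKM + 1), which understate the change of low genes, were computed in Python 3.11.15 with numpy 2.4.6 and pandas 2.3.3, and drawn with matplotlib 3.10.9. The limit of 1.5 is a size, not a test. The computation was tested on simulated data with planted differences well past the limit and little noise. This checks the arithmetic and not the error of the real values. Positions and exon lengths come from GENCODE on NCBIM37, matching 7858 of the compared rows. Symbols are shared by 44 rows, which entered no gene list.

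Named were the 20 largest differences in each direction, up to 6 class genes per list and direction, 12 class factors, the 10 most lasting, 10 fading (whose E18.5 difference most exceeds the mean of P21 and P48) and 10 highest genes in each direction, and 3 genes on each side of the limit. Genes of up to 300 nt were passed over for the lasting, fading and highest genes. Other genes were named after their values were seen, and the values of 2 genes of the lists are not reported here. The compared genes and the 40 lists were chosen with earlier results of these data known. Alternatives were a pseudocount of 0.1, minima of 30 FPKM and of none at E18.5, limits of 1 and 2, scaling by median ratios and keeping small RNAs, and, chosen after seeing the data, leaving out short genes or interneuron markers.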

Additional observations from a re-analysis of the deposited data

Results flagged for a closer look

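For 5 genes above 300 nt the class difference was past 1.5 in one direction at E18.5 and past 1.5 in the other at both P21 and P48. With 1 value per group, the change of direction was not tested. Igfbp4, a binding protein of insulin-like growth factors known from layer 5, had differences of 2.29 at E18.5, -2.18 at P21 and -2.85 at P48. Its level in Tle4 CThPNs was 5.77 FPKM at E18.5 and 236 FPKM at P21. Nxph1 had differences of 3.82, -3.11 and -2.19, with 50.1 FPKM in Cux2 CPNs and 2.62 FPKM in Tle4 CThPNs at E18.5 and 6.08 FPKM and 60.0 FPKM at P21.

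The other 3 were higher in Tle4 CThPNs at first. Cnih3 had differences of -2.32, 2.26 and 2.12, as its level was 33.3 FPKM at E18.5 and 261 FPKM at P21 in Cux2 CPNs, and 170 FPKM and 53.7 FPKM in Tle4 CThPNs. Whrn (whirlin, a scaffold protein) had differences of -2.37, 2.68 and 2.21. Penk, which encodes the opioid peptide precursor proenkephalin, had differences of -3.04, 2.16 and 2.36.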

How the results depend on the processing

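The 4 counts that answer the comparison are the genes higher in Cux2 CPNs (180), those higher in Tle4 CThPNs (228), and those still past the limit at P48 (38 and 69). They stayed within 1.5 times under a pseudocount of 0.1, no minimum at E18.5, small RNAs kept, scaling by median ratios, and without short genes or interneuron markers (168 in Cux2 CPNs). With a minimum of 30 FPKM they were 93, 114, 21 and 36, since fewer genes enter, and with a limit of 1 they were 380, 398, 95 and 112. With a limit of 2 they were 108, 153, 28 and 39. Some list counts moved more. With a minimum of 30 FPKM, 4 interneuron markers (12 before) were higher in Cux2 CPNs and 3 subplate genes (7 before) in Tle4 CThPNs. Callosal genes higher in Cux2 CPNs and corticothalamic genes higher in Tle4 CThPNs were then 12 each (17 and 15 before). With a limit of 1, guidance receptors higher in Cux2 CPNs were 12 (6 before) and radial migration genes 11 (3 before). Scaling moved the median difference from 0.13 to 0.03 and gave 163 and 244 genes, and 7 named genes (Cacna2d1, Cited2, Gm10119, Lrrc16b, Macrod2, Neo1 and Pou3f3) no longer reached the limit. No paired analysis was possible because each group has 1 value that carries no replicate number, and for the same reason no library could be left out. FPKM keep no read numbers, so the counting error of values of a few FPKM is not given.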
